A study of Mus musculus with 42 samples.

Results

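The 10 genes described here mark intercalated cells of the kidney collecting duct. They were taken by name from the deposited tables, where all 10 were found among 54532 genes. Slc4a1 and Aqp6 stand for alpha-type cells and Slc26a4, Slc4a9, Insrr and Oxgr1 for beta-type cells. Foxi1, Rhbg, Rhcg and Hmx2 were listed under both types. Of these, Hmx2 followed the beta-type Slc26a4 in level (Pearson correlation 0.941 over all libraries) and not Slc4a1 (0.151). RNA of 42 whole mouse kidneys was sequenced, in 3 cohorts and 14 groups of 3 libraries each, from C57BL/6 mice. Whole-body deletion was induced at birth in the CaggCreERT2 cohort, by tamoxifen that reached the pups through the milk, and 12 kidneys were collected at day 30 from control, Tsc2 KO, Tfeb KO and Tsc2/Tfeb double knockout (DKO) mice. In the KspCre cohort Cre was under the promoter of Cdh16, a cadherin of kidney tubule epithelium, so that Cre acts in tubular epithelium, and 12 kidneys with the same 4 genotypes were collected at day 50. A further KspCre cohort of 18 kidneys, here called the drug cohort, held control, Tsc2 KO and DKO mice that had been given vehicle or rapamycin at 1 mg/kg, 3 times a week from day 25 for 11 injections, and were also collected at day 50. The controls are labelled wild type. The study describes the controls of the sequenced KspCre kidneys as Cre-negative, and those of the sequenced CaggCreERT2 kidneys as Cre-positive mice with wild-type Tsc2 that were exposed to tamoxifen as well.

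Intercalated cells carry acid-base transport in the collecting duct, in a mosaic with the principal cells that handle water and sodium. Alpha-type cells secrete acid into the urine and return bicarbonate to the blood through the exchanger Slc4a1, whereas beta-type cells secrete bicarbonate through pendrin, the product of Slc26a4, and carry the anion exchanger Slc4a9 on the blood side. Both types depend on the forkhead factor Foxi1, which switches on many of their transporters and proton pump subunits. Tsc2 restrains the growth kinase complex mTORC1, the target of rapamycin, and Tfeb is a transcription factor of lysosomal genes.

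Libraries held between 14926050 and 22807605 reads on genes. Tsc2 measured between 8.59 and 10.6 FPKM (fragments per kilobase of gene, scaled to library size) in the untreated or vehicle-treated controls and between 3.54 and 4.55 in the corresponding Tsc2 KO libraries, without overlap. Tfeb was lower in DKO than in control kidneys in all 3 cohorts, by -1.08, -0.88 and -0.66 on the log2 scale, but its difference between Tfeb KO and control did not pass the test in the CaggCreERT2 (log2 -0.80, adjusted p = 0.394) or the KspCre cohort (log2 -0.33, adjusted p = 0.627). For 4 CaggCreERT2 libraries the count table gives another name than the FPKM table, with another genotype for 2 of them. The FPKM table was followed. Its DKO mouse 1, named Tfeb KO mouse 3 in the count table, had Tsc2 at 5.26 FPKM. Its Tfeb KO mouse 3, named DKO mouse 3 in the count table, had 10.2. Its other DKO mice had 4.82 and 5.64 and its other Tfeb KO mice 9.34 and 9.05. The Tsc2 levels thus go with the FPKM names. The genes of the X and Y chromosomes show that this cohort mixed males and females unevenly over its groups, with controls all male and Tfeb KO all female, while both KspCre cohorts were female throughout. The library of CaggCreERT2 Tsc2 KO mouse 3 stood apart from its group in most of the 10 genes. Many results that rest on it are given with and without it. It was picked for these values, so the fits without it are descriptions. In the drug cohort vehicle-treated DKO mouse 2 was lowest of its group in Slc26a4 (44.1 FPKM against 99.8 and 90.8), Slc4a9, Insrr, Hmx2 and Oxgr1. It differed from mouse 1 and 3 by 87.5 and 84.4 times the sampling noise, against 16.4 between mouse 1 and 3. The kidneys were sequenced whole, so fewer cells of a type and less RNA per cell cannot be told apart.

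The sequences upstream of 4 genes with contrasting behaviour are shown because 2 of them (Slc26a4 and Hmx2) fell and the others (Foxi1 and Aqp6) rose in Tsc2 KO kidneys of the drug cohort. Each line holds the 250 bases before the RefSeq start of the gene in build GRCm38.p6, read 5′ to 3′ on the strand of the gene. They lie at chr12:31559985-31560234 on the minus strand for Slc26a4, chr7:131548507-131548756 on the plus strand for Hmx2 (the more distal of 2 RefSeq starts), chr11:34208090-34208339 on the minus strand for Foxi1 and chr15:99600950-99601199 on the plus strand for Aqp6.
Slc26a4: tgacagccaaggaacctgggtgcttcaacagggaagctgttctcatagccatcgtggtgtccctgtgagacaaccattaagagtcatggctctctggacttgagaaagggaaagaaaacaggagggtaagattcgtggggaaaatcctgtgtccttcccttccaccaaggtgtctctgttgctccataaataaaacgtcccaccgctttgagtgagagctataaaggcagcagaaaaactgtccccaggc
Hmx2: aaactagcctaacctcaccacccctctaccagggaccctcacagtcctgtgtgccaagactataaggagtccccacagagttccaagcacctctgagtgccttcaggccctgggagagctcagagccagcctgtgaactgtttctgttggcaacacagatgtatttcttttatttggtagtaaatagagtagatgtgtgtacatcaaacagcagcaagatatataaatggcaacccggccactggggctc
Foxi1: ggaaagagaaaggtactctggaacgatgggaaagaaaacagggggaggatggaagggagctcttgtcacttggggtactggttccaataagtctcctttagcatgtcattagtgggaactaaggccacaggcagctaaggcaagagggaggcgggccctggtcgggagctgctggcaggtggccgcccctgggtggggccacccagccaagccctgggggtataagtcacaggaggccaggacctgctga
Aqp6: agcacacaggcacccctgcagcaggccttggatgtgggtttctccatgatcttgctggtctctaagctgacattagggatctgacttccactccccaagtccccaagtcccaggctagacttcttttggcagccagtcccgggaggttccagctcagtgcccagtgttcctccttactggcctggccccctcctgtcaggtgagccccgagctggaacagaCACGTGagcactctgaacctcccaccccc
Of the 10 genes, 6 had a promoter entry that was used. Both strands of their 7 windows were searched for the E-box CACGTG, which is the core of the element that Tfeb binds, and for the forkhead core motifs TGTTTAC and TGTTTGC. The 1 match was the CACGTG of Aqp6, in capitals above, 24 to 29 bases before the start. Among all 32851 promoter windows of this length, 6.02% held CACGTG, 3.17% held TGTTTAC and 4.30% held TGTTTGC. The RefSeq start of Aqp6 lies 200 bases before the start that the deposited tables give, and those of Slc26a4 and Hmx2 lie 15 and 16 bases before theirs.

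In control kidneys the 10 genes spanned a wide range of level per length. In the CaggCreERT2 controls Rhcg, an ammonia channel of the apical membrane, was highest at 97.3 ± 9.38 FPKM (SD, n = 3), followed by Aqp6, a vesicular water and anion channel of alpha-type cells, at 72.0 ± 1.98. Slc26a4 (35.8 to 42.3 FPKM) and Slc4a9 (32.3 to 43.5) overlapped, as did Foxi1 (25.02 to 30.4) and Slc4a1 (26.9 to 29.4). Oxgr1, the receptor for 2-oxoglutarate, measured 13.1 to 16.8 FPKM, Rhbg, the basolateral ammonia transporter, 10.4 to 11.1, Insrr, an alkali-sensing relative of the insulin receptor, 8.95 to 10.2, and the homeobox factor Hmx2 6.06 to 6.45. In build mm10 the tables place Slc4a1 at chr11:102348824-102366203, Foxi1 at chr11:34204338-34208089 and Slc26a4 at chr12:31519827-31559969 on the minus strand, and Aqp6 at chr15:99601400-99605477, Insrr at chr3:87796951-87816101 and Hmx2 at chr7:131548773-131558014 on the plus strand. All 10 genes are annotated as protein-coding. Insrr and Hmx2 overlap genes on the opposite strand (Pear1 and Fgfr2) and Rhbg and Rhcg overlap gene models on their own strand, and the libraries carry no strand information, so reads of such partners cannot be told apart.

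**Figure D1:**
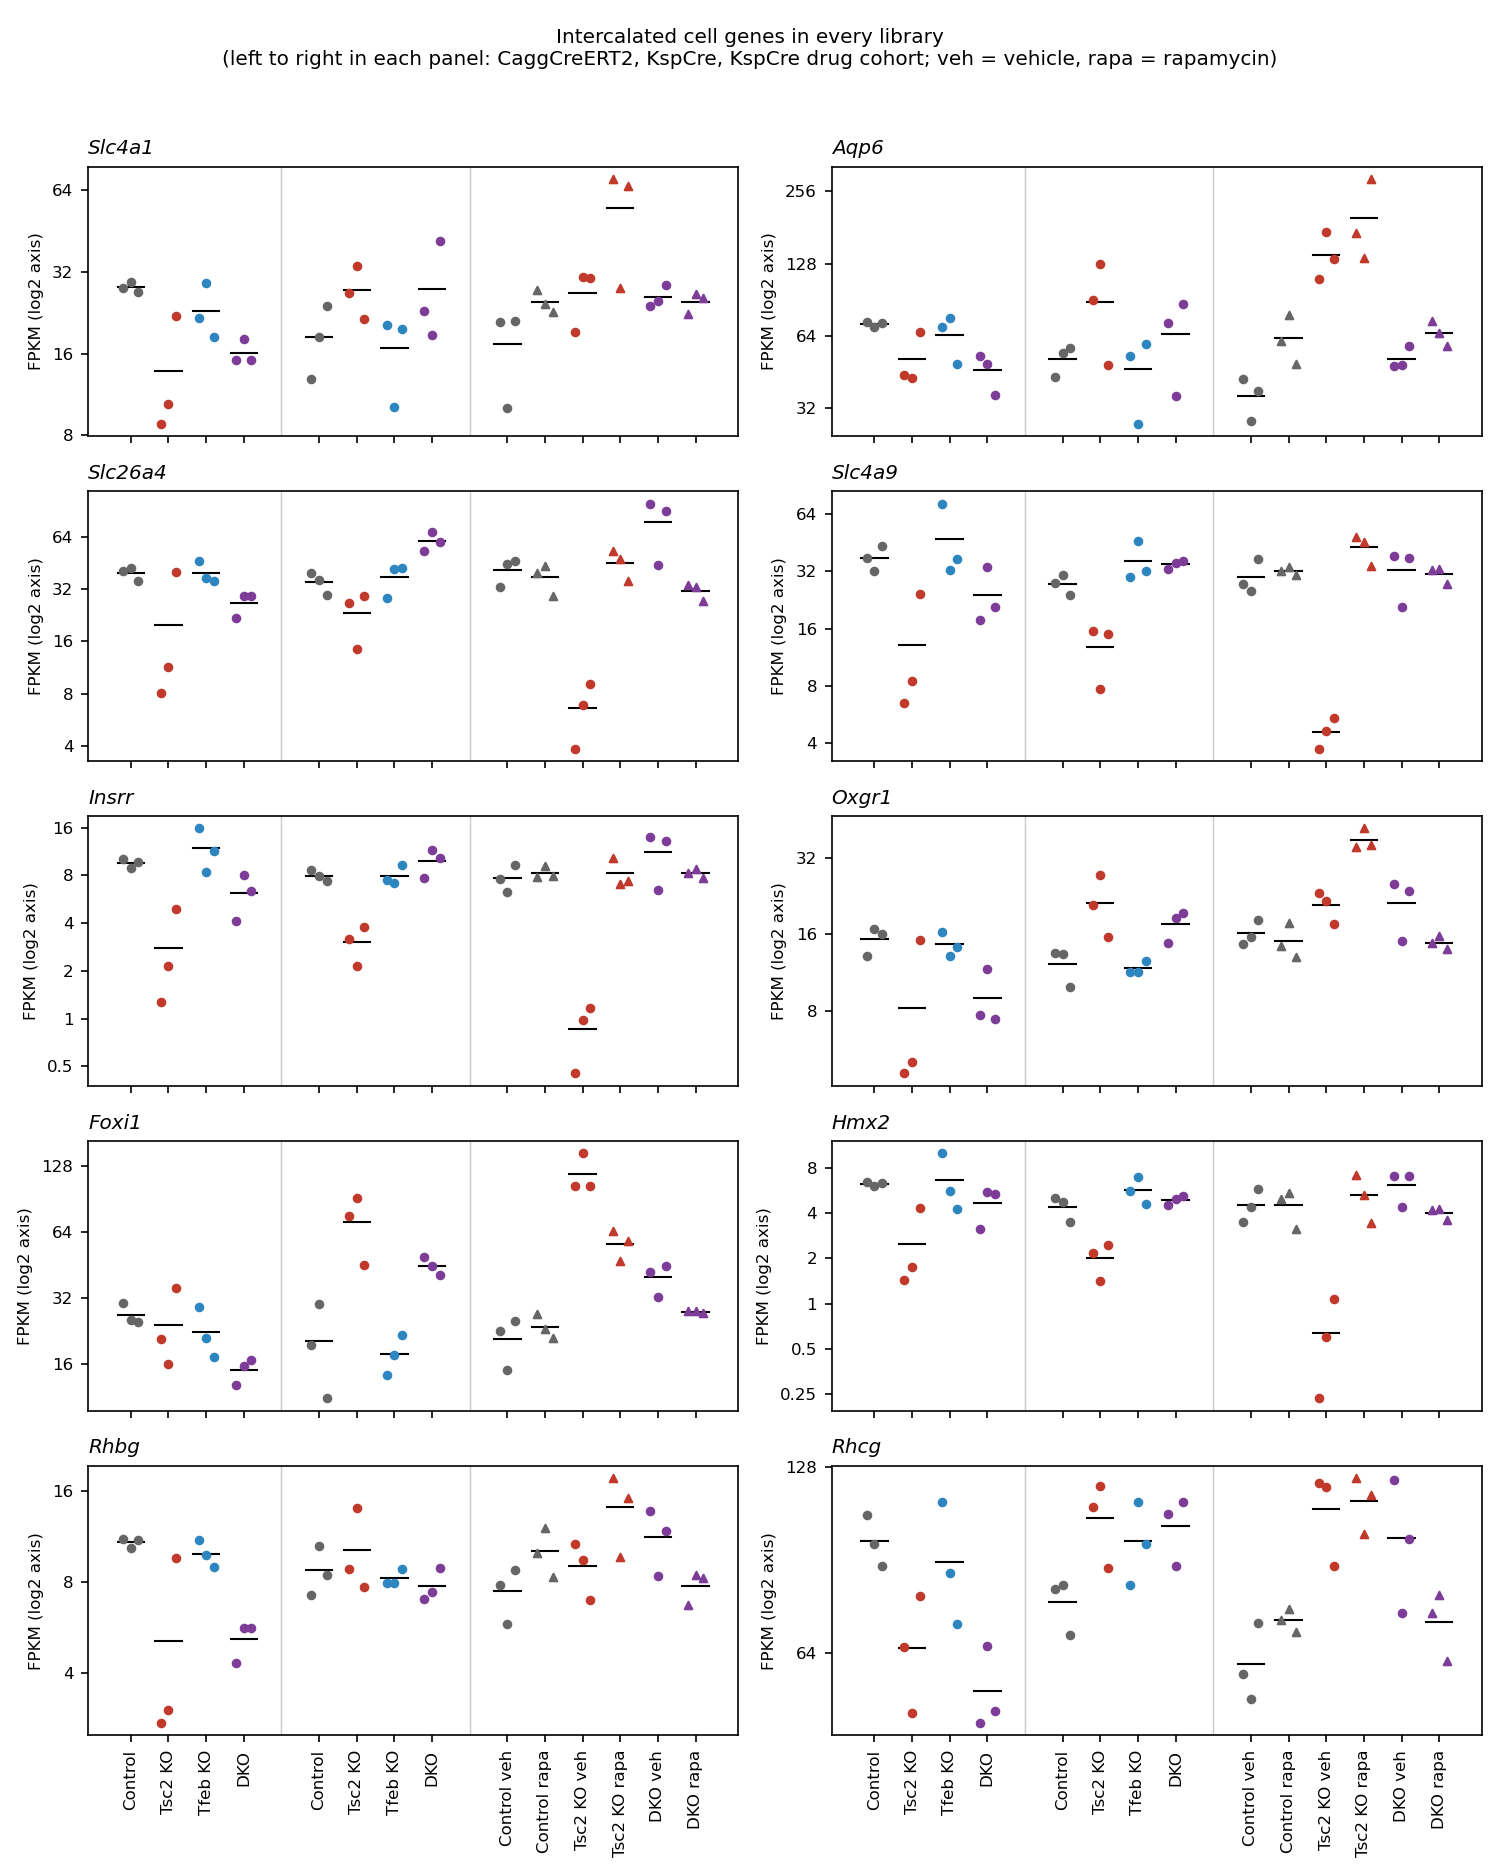
Deposited FPKM of the 10 genes (log axis) in each of the 42 libraries, in the order of the 14 groups. Each point is 1 library; Slc26a4, Slc4a9, Insrr and Hmx2 drop together in vehicle-treated Tsc2 KO kidneys of the drug cohort while Foxi1 and Aqp6 lie above their controls there.

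The comparison of Tsc2 KO with control kidneys asks how each gene differs once Tsc2 is lost. The beta-type transporters Slc26a4 and Slc4a9 were lower in Tsc2 KO kidneys of the drug cohort. In vehicle-treated controls of the drug cohort Slc26a4 measured 33.1, 44.7 and 46.5 FPKM, and in vehicle-treated Tsc2 KO mice 3.85, 6.86 and 9.15. All 3 Tsc2 KO values lay far below the lowest control, and Slc26a4 fell by 2.64 on the log2 scale (SE 0.32, adjusted p = 1.01e-05 in edgeR). Slc4a9 measured 27.5, 25.4 and 37.2 FPKM in these controls and 3.73, 4.600 and 5.41 in the Tsc2 KO mice, and fell by 2.71 (SE 0.23, adjusted p = 2.91e-07). The groups did not overlap for Slc4a9 either.

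Insrr and Hmx2 moved with the beta-type transporters. Insrr measured 7.56, 6.31 and 9.28 FPKM in vehicle-treated controls and 0.451, 0.979 and 1.16 in vehicle-treated Tsc2 KO mice, and fell by 3.15 on the log2 scale (SE 0.32, adjusted p = 1.67e-06). Hmx2 fell by 2.83 (SE 0.41, adjusted p = 5.49e-05), from 3.48, 4.38 and 5.77 FPKM to 0.236, 0.603 and 1.07. These were the lowest levels of both genes in any of the 14 groups. Oxgr1, grouped with the beta-type genes, did not pass (log2 0.37, adjusted p = 0.109), nor did Rhbg (log2 0.28, SE 0.24, adjusted p = 0.387).

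Foxi1, by contrast, was higher. In the drug cohort it measured 22.7, 15.01 and 25.1 FPKM in vehicle-treated controls and 104, 147 and 104 in vehicle-treated Tsc2 KO mice, and rose by 2.50 on the log2 scale (SE 0.20, adjusted p = 1.77e-07). All 3 Tsc2 KO values lay above the highest control. Aqp6 rose with it, from 42.2, 28.4 and 37.6 FPKM to 111, 173 and 134 (log2 1.95, SE 0.26, adjusted p = 2.52e-05), and Rhcg rose by 0.83 (SE 0.17, adjusted p = 0.00122).

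The alpha-type exchanger Slc4a1 did not pass the test in this cohort. It measured 20.98, 10.1 and 21.06 FPKM in vehicle-treated controls and 19.1, 30.7 and 30.3 in vehicle-treated Tsc2 KO mice, and the groups overlapped (log2 0.62, SE 0.30, unadjusted 95% interval 0.02 to 1.21, adjusted p = 0.117). Slc4a1 is also the band 3 protein of red blood cells. The summed level of 9 erythroid genes ranged from 201 to 301 FPKM in these controls and from 14.5 to 87.3 in these Tsc2 KO kidneys, with 4 of the 6 tested erythroid genes lower and none higher, and their part in the Slc4a1 values was not tested. In all, 3 of the 10 genes were higher and 4 were lower in the drug cohort, a comparison in which 38.3% of all tested genes were called (adjusted p of 0.05 or lower), 19.4% higher and 18.9% lower, with a median log2 difference near 0 over all genes.

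In the untreated KspCre cohort the differences had the same direction for the 4 genes called in both. Foxi1 rose by 1.80 on the log2 scale (SE 0.34, adjusted p = 0.00504), from 19.7, 30.3 and 11.2 FPKM in controls to 75.9, 91.3 and 45.6 in Tsc2 KO mice. Slc4a9 fell by 1.12 (SE 0.24, adjusted p = 0.0112), Insrr by 1.40 (SE 0.21, adjusted p = 0.00132) and Hmx2 by 1.12 (SE 0.23, adjusted p = 0.0078). For Slc4a9 the controls held 27.9, 30.7 and 24.1 FPKM and the Tsc2 KO mice 15.5, 7.70 and 14.98. Slc26a4, at 39.9, 36.2 and 29.5 FPKM in controls against 26.5, 14.4 and 29.2, did not pass (log2 -0.59, adjusted p = 0.139), although no Tsc2 KO library exceeded a control. Oxgr1 rose by 0.78 (SE 0.20, adjusted p = 0.0211), but lost the call in 3 of the 6 fits that leave out 1 library, where its adjusted p reached 0.086. Slc4a1 (log2 0.56, adjusted p = 0.334), Aqp6 (0.78, 0.226), Rhcg (0.45, 0.0903) and Rhbg (0.21, 0.592) did not pass. Erythroid genes summed to between 128 and 493 FPKM in these controls and to between 20.7 and 43.0 in these Tsc2 KO kidneys. Their part in the Slc4a1 values was not tested. In this cohort 5 of the 10 genes were called, 2 higher and 3 lower, where 13.8% of all tested genes were called, 7.64% higher and 6.21% lower.

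**Figure D2:**
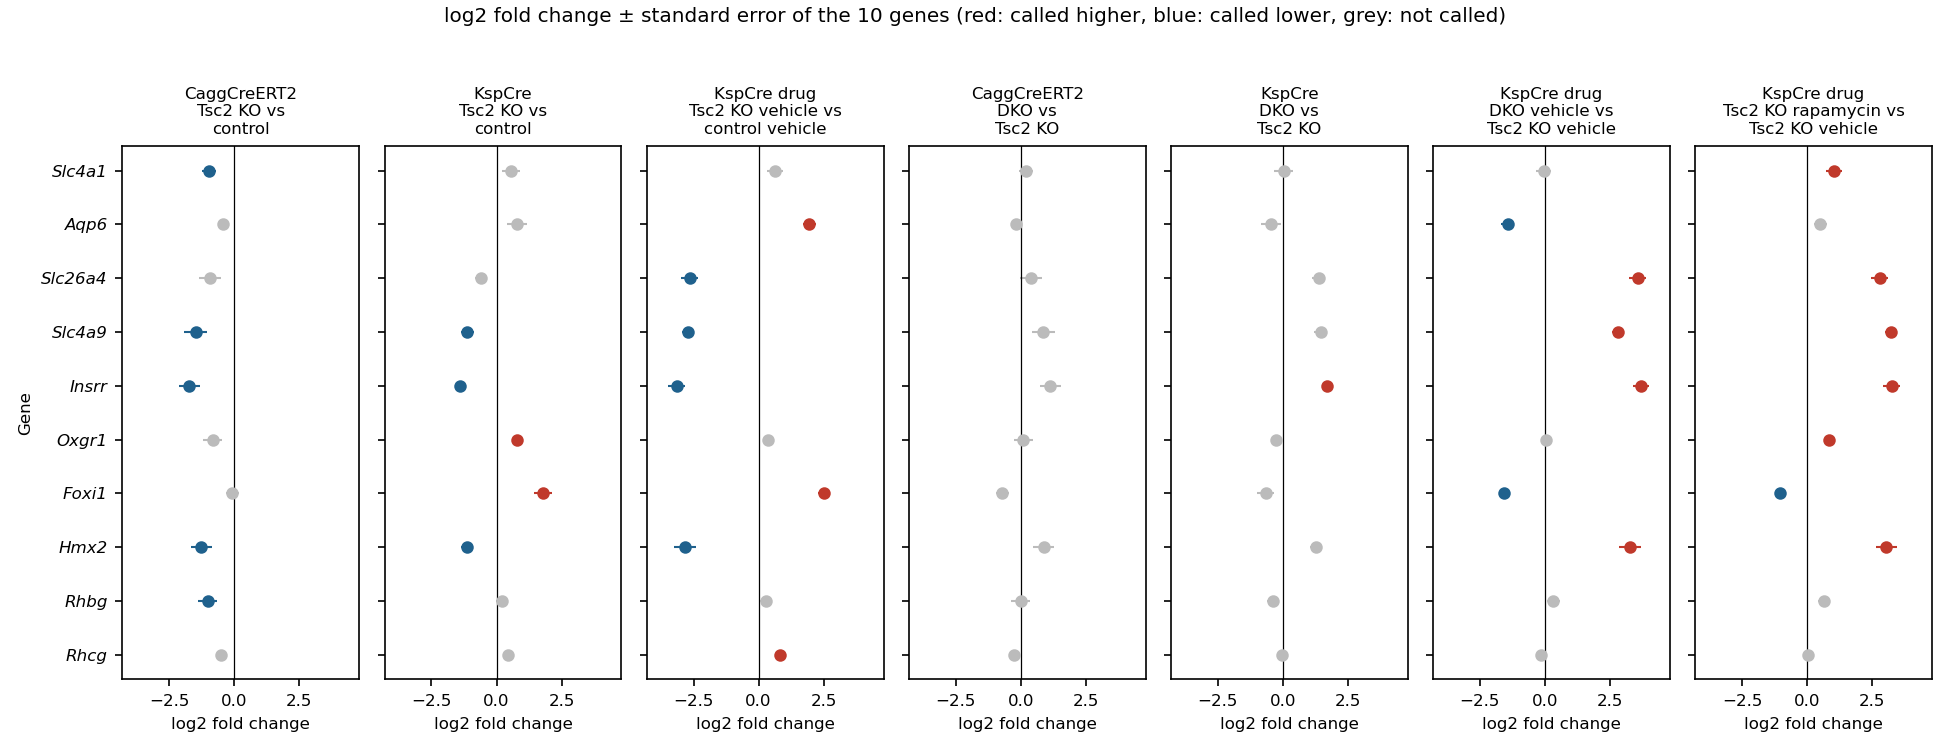
Log2 fold changes of the 10 genes from edgeR for the main comparisons within each cohort. Bars are standard errors, red and blue points were called higher and lower and grey points were not called. In the drug cohort the 4 genes Slc26a4, Slc4a9, Insrr and Hmx2 lie below 0 for Tsc2 KO against control and above 0 for DKO and for rapamycin against Tsc2 KO.

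In the CaggCreERT2 cohort 1 of the 2 alpha-type genes (Slc4a1) and 2 of the 4 beta-type genes (Slc4a9 and Insrr) were lower in Tsc2 KO kidneys. So were 2 of the 4 genes listed under both types, Rhbg and Hmx2, of which Hmx2 followed beta-type genes in level. Foxi1 did not pass. Slc4a1 measured 28.0, 29.4 and 26.9 FPKM in controls and 8.82, 10.5 and 22.0 in Tsc2 KO mice, and fell by 0.97 on the log2 scale (SE 0.27, adjusted p = 0.0178). Slc4a9 fell by 1.48 (SE 0.45, adjusted p = 0.0256), Insrr by 1.74 (SE 0.40, adjusted p = 0.0066), Hmx2 by 1.27 (SE 0.40, adjusted p = 0.0305) and Rhbg by 1.03 (SE 0.36, adjusted p = 0.0491). Foxi1 measured 30.4, 25.6 and 25.02 FPKM in controls and 20.98, 16.1 and 35.8 in Tsc2 KO mice (log2 -0.09, adjusted p = 0.819). Slc26a4 measured 41.0, 42.3 and 35.8 FPKM in controls and 8.03, 11.4 and 40.4 in Tsc2 KO mice, so that mouse 3 lay within the control range and the difference did not pass (log2 -0.94, adjusted p = 0.121). Oxgr1 (log2 -0.84, adjusted p = 0.101), Rhcg (-0.51, 0.0541) and Aqp6 (-0.43, 0.114) did not pass either.

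Counted over the 10 genes, 5 were lower and none higher in the CaggCreERT2 Tsc2 KO kidneys, beside 29.0% of all tested genes called, 15.6% higher and 13.4% lower. Without mouse 3, 9 genes were called lower, in a fit that called 30.2% of all tested genes, and Foxi1 alone did not pass (log2 -0.47, adjusted p = 0.0996). The log2 difference in that fit was -1.47 for Slc4a1, -2.27 for Slc4a9, -2.43 for Insrr, -1.91 for Hmx2 and -1.84 for Rhbg. Slc26a4 was at -1.96 (adjusted p = 1.77e-05), Oxgr1 at -1.60 (adjusted p = 0.000136), Rhcg at -0.66 and Aqp6 at -0.65. Without Tsc2 KO mouse 1 or mouse 2, only Insrr stayed called, and leaving out a control left 2 genes in each case. With the expression of Xist as a covariate for sex, 1 gene (Insrr) was called. The shares of all tested genes called in these other fits are not given here, so a general loss of calls cannot be told apart. Erythroid genes summed to between 434 and 1490 FPKM in the controls and to between 45.3 and 670 in the Tsc2 KO kidneys, with 1 of 6 tested genes higher and none lower.

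Other cell types of the kidney also moved. Of 7 proximal tubule markers, 6, 4 and 5 were lower in Tsc2 KO kidneys of the CaggCreERT2, KspCre and drug cohorts, and their summed level in the drug cohort ranged from 1595 to 1889 FPKM in controls and from 386 to 619 in Tsc2 KO kidneys. Of 9 tested principal cell markers, 5, 5 and 3 were lower and 0, 0 and 2 higher in the same comparisons, with sums in the drug cohort of 421 to 468 FPKM in controls and 310 to 359 in Tsc2 KO kidneys. Of 6 markers of the thick limb and distal convoluted tubule 5, 2 and 5 were lower, while their summed level ranged from 1226 to 1503, 1466 to 1616 and 1226 to 1736 FPKM in controls and from 746 to 879, 1993 to 2177 and 1008 to 1925 in Tsc2 KO kidneys, so that in the KspCre cohort the sum was higher without overlap. Of 5 podocyte markers 5, 5 and 4 were lower. Of 5 endothelial markers 0, 4 and 3 were lower and none higher. Of 7 macrophage markers 2, 0 and 6 were higher and 0, 0 and 1 lower. Among all tested genes 29.0%, 13.8% and 38.3% were called in these comparisons. The part of these cell types in the values of the 10 genes was not tested.

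The double knockout asks whether the differences persist when Tfeb is lost as well. In the drug cohort the 4 genes that fell in Tsc2 KO kidneys were higher in DKO kidneys, and Foxi1 and Aqp6 were lower. Slc26a4 measured 99.8, 44.1 and 90.8 FPKM in vehicle-treated DKO mice, all above the 3.85 to 9.15 of Tsc2 KO mice, and was higher by 3.56 on the log2 scale (SE 0.33, adjusted p = 3.39e-06). Slc4a9 was higher by 2.82 (SE 0.23, adjusted p = 1.17e-06), Insrr by 3.69 (SE 0.32, adjusted p = 1.75e-06) and Hmx2 by 3.27 (SE 0.41, adjusted p = 5.06e-05). Foxi1, at 42.4, 32.4 and 45.0 FPKM, was lower than in Tsc2 KO mice by -1.57 (SE 0.19, adjusted p = 4.39e-05), and Aqp6 by -1.43 (SE 0.26, adjusted p = 0.000834). Slc4a1 did not differ detectably (log2 -0.05, SE 0.30, adjusted p = 0.919), and Oxgr1 (0.04, 0.907), Rhbg (0.32, 0.367) and Rhcg (-0.16, 0.553) did not pass. Thus 4 of the 10 genes rose and 2 fell relative to vehicle-treated Tsc2 KO kidneys, where 22.0% of all tested genes were called. Other cell types moved in the same comparison. Of 7 proximal tubule markers 5 were higher, with sums of 955 to 1733 FPKM in DKO kidneys, as were 5 of 6 thick limb and distal convoluted tubule, 4 of 9 principal cell, 4 of 5 podocyte, 2 of 5 endothelial and 5 of 6 erythroid markers. Of 7 macrophage markers 3 were lower, and 1 principal cell marker was. Erythroid sums were 364 to 2153 FPKM in these DKO kidneys, and the part of these cell types in the values of the 10 genes was not tested.

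Set against the vehicle-treated controls, DKO kidneys of the drug cohort had a higher Foxi1 (log2 0.93, SE 0.19, adjusted p = 0.0106) and a higher Rhcg (log2 0.67, SE 0.17, adjusted p = 0.0297), 2 of the 10 genes where 6.01% of all genes were called. The call of Rhcg was lost in 4 of the 6 fits without 1 library, with an adjusted p of up to 0.125. With only the groups compared in the fit neither gene was called, with Foxi1 at an adjusted p of 0.0721. In this comparison 3 of 6 erythroid, 5 of 21 other intercalated cell, 1 of 9 principal cell and 1 of 6 thick limb and distal convoluted tubule genes were higher. There 2 of 7 proximal tubule markers, 1 other intercalated cell gene, 1 thick limb and distal convoluted tubule marker and 1 macrophage marker were lower, and their part was not tested. For Slc26a4 the difference was 0.92 (SE 0.30, adjusted p = 0.0799).

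In the untreated KspCre cohort 1 of the 10 genes passed between DKO and Tsc2 KO kidneys, Insrr (7.75, 11.5 and 10.3 against 3.18, 2.14 and 3.77 FPKM, log2 1.70, SE 0.21, adjusted p = 0.0212), where 0.144% of all tested genes were called, 0.0601% higher and 0.0842% lower. Slc26a4 measured 53.5, 68.0 and 59.7 FPKM in DKO mice, without overlap with the 14.4 to 29.2 of Tsc2 KO mice, and fell short of the threshold (log2 1.37, adjusted p = 0.0547), as did Slc4a9 (1.46, 0.0524) and Hmx2 (1.27, 0.0547). DESeq2 called all 4 of these genes. Insrr lost its call without Tsc2 KO mouse 1 or 2 or DKO mouse 3, with an adjusted p of up to 0.0992, and also with the replicate block (0.0512) and with only the groups compared (0.0683). The KspCre cohort had 1 DKO library with a macrophage marker sum of 700 FPKM, against 64.3 and 88.1 in the others. Between DKO and control kidneys of this cohort edgeR called none of the 10 genes, where 3.10% of all genes were called and 3232 had an unadjusted p of 0.05 or lower. DESeq2 called 2, Slc26a4 and Foxi1. The shares of all genes given in this paragraph are those of edgeR, and those of DESeq2 are not given here.

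In the CaggCreERT2 cohort none of the 10 genes was called between DKO and Tsc2 KO kidneys with edgeR or DESeq2, although 9.92% of all tested genes were called, 5.34% higher and 4.58% lower, and 4344 of them had an unadjusted p of 0.05 or lower. Insrr had a log2 difference of 1.14 (adjusted p = 0.0902), and Foxi1 one of -0.71 (adjusted p = 0.098). With a library left out they ran from 0.79 to 1.83 for Insrr and from -0.93 to -0.33 for Foxi1. Without Tsc2 KO mouse 2, Foxi1 was called lower in DKO (edgeR adjusted p = 0.0319). Without Tsc2 KO mouse 3, 7 of the genes were called, all higher in DKO, in a fit that called 13.5% of all tested genes. With all libraries, 5 of 7 proximal tubule, 3 of 6 thick limb and distal convoluted tubule, 4 of 5 podocyte and 2 of 9 principal cell markers were higher in DKO than in Tsc2 KO kidneys and none of them lower, and their part was not tested. Slc26a4 measured 21.7, 29.2 and 29.2 FPKM in DKO mice, between the controls and Tsc2 KO mice 1 and 2. Against the controls, edgeR with all libraries called Rhcg alone (log2 -0.77, SE 0.18, adjusted p = 0.0199), where 10.2% of all genes were called. Rhcg lost the call in 4 of the 6 fits without 1 library. Podocyte sums were 105 to 111 FPKM in these DKO kidneys against 156 to 174 in controls, and proximal tubule sums 1196 to 1479 against 1817 to 2044. Principal cell and thick limb and distal convoluted tubule sums were lower too. Erythroid, endothelial and macrophage sums overlapped, and their part was not tested. The number of the 10 genes called against the controls was 5 with DESeq2, 6 with no filter on low counts and 7 with only the groups compared, all lower. It was 0 with the names of the count table, which the Tsc2 levels go against. The shares of all tested genes called in these other fits are not given here, so a general change in calls cannot be told apart.

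Loss of Tfeb alone changed none of the 10 genes by this test in either cohort, but few genes of any kind passed, at 0.0184% of all tested genes in the CaggCreERT2 and 0% in the KspCre cohort. Among all genes of the KspCre cohort 1424 had an unadjusted p of 0.05 or lower, and DESeq2 called 16. Foxi1 measured 29.2, 21.2 and 17.3 FPKM in CaggCreERT2 Tfeb KO mice and 14.3, 17.6 and 21.8 in KspCre Tfeb KO mice, and both ranges overlapped their controls.

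Rapamycin, an inhibitor of mTORC1, was compared with vehicle within each genotype. In Tsc2 KO mice it raised the 4 genes that had fallen. Slc26a4 measured 53.1, 48.0 and 35.6 FPKM after rapamycin against 3.85, 6.86 and 9.15 after vehicle, and rose by 2.79 on the log2 scale (SE 0.32, adjusted p = 1.22e-05). Slc4a9 rose by 3.23 (SE 0.24, adjusted p = 1.9e-07), from at most 5.41 FPKM to 48.8, 45.6 and 34.2. Insrr rose by 3.25 (SE 0.32) and Hmx2 by 3.05 (SE 0.41), to 10.3, 7.06 and 7.40 FPKM and to 7.12, 5.26 and 3.43 FPKM. For each of the 4 genes the lowest rapamycin-treated library lay above the highest vehicle-treated one.

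Foxi1 went the other way. It measured 64.6, 47.4 and 58.2 FPKM in rapamycin-treated Tsc2 KO mice, below the 104 to 147 of vehicle, and fell by 1.06 on the log2 scale (SE 0.19, adjusted p = 0.000625). Aqp6 did not pass, at 172, 135 and 289 FPKM against 111, 173 and 134 (log2 0.51, SE 0.25, adjusted p = 0.14). Oxgr1 rose by 0.86 (SE 0.17, adjusted p = 0.00153), to 35.3, 41.6 and 35.8 FPKM from 23.2, 21.6 and 17.6. Slc4a1 rose by 1.04 (SE 0.30, adjusted p = 0.0174), with 70.4, 27.8 and 66.0 FPKM after rapamycin, so that the second mouse lay within the vehicle range. The call of Slc4a1 was lost without Tsc2 KO vehicle mouse 1 or rapamycin mouse 1 or 3, where its adjusted p reached 0.0773. Rhbg (log2 0.65, adjusted p = 0.0515) and Rhcg (0.05, 0.871) did not pass. In all, 6 of the 10 genes were higher and 1 lower after rapamycin, where 29.4% of all tested genes were called. Other cell types moved here too, with 6 of 7 proximal tubule (sums of 1455 to 1914 FPKM after rapamycin), 5 of 6 thick limb and distal convoluted tubule, 4 of 5 podocyte and 3 of 9 principal cell markers higher, 1 principal cell marker and 4 of 7 macrophage markers lower, and no endothelial or erythroid marker called. Their part in the values of the 10 genes was not tested.

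Rapamycin-treated Tsc2 KO and control kidneys differed in 3 genes, where 0.634% of all tested genes were called. Aqp6 was higher by 1.66 on the log2 scale (SE 0.26, adjusted p = 0.00585), Oxgr1 by 1.32 (SE 0.18, adjusted p = 0.00186) and Foxi1 by 1.25 (SE 0.19, adjusted p = 0.00585). The call of Foxi1 was lost in 1 of the 6 fits without 1 library. Slc26a4 (log2 0.29, SE 0.30), Slc4a9 (0.41, SE 0.21), Insrr (-0.01, SE 0.28) and Hmx2 (0.23, SE 0.37) were not called.

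In control mice edgeR called none of the 10 genes between rapamycin and vehicle, beside 0.0294% of all tested genes. Of all genes 1926 had an unadjusted p of 0.05 or lower. Slc4a1 measured 27.4, 24.4 and 22.7 FPKM after rapamycin in controls and 20.98, 10.1 and 21.06 after vehicle. Aqp6 measured 60.8, 78.7 and 48.9 against 42.2, 28.4 and 37.6. Neither is among the genes below whose rapamycin effect in Tsc2 KO mice differed from that in controls. In DKO mice it lowered Slc26a4, from 99.8, 44.1 and 90.8 FPKM to 34.0, 32.9 and 27.4 (log2 -1.32, SE 0.30, adjusted p = 0.02), where 5.57% of all genes were called, but 5 of the 6 fits without 1 library lost that call. There 5 of 6 erythroid, 5 of 21 other intercalated cell and 2 of 7 macrophage genes were lower, 2 of 6 thick limb and distal convoluted tubule, 1 of 9 principal cell and 1 macrophage marker were higher, and their part was not tested. The effect of rapamycin in Tsc2 KO mice was tested directly against its effect in the other genotypes. Against controls, it differed for 6 genes, Slc26a4 (2.93), Slc4a9 (3.12), Insrr (3.14), Hmx2 (3.05), Oxgr1 (0.96) and Foxi1 (-1.24), where 20.8% of all genes were called. Against DKO mice it differed for Slc26a4 (4.10), Slc4a9 (3.29), Insrr (3.69), Hmx2 (3.67), Oxgr1 (1.37) and Rhbg (1.19), where 6.95% were called. The call of Rhbg (adjusted p = 0.0453) was lost in 9 of the 12 fits without 1 library.

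The ratio of a beta-type to the alpha-type exchanger within a library is free of library size, which cancels from it. In vehicle-treated controls of the drug cohort there were 1.58, 4.45 and 2.21 FPKM of Slc26a4 for each FPKM of Slc4a1. In vehicle-treated Tsc2 KO mice the ratio was 0.201, 0.223 and 0.302. The level of Slc4a1 per length thus exceeded that of Slc26a4 in each of these 3 kidneys and in none of the controls. The untreated KspCre cohort had ratios from 1.23 to 3.10 in controls and from 0.427 to 1.36 in Tsc2 KO mice, which overlapped. In the CaggCreERT2 cohort the ratio ranged from 1.33 to 1.47 in controls and from 0.911 to 1.84 in Tsc2 KO mice.

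Averaged over the 3 cohorts, the log2 ratio of Slc26a4 to Slc4a1 differed by -1.60 between Tsc2 KO and control (two-sided exact permutation test within cohorts, p = 0.004, adjusted p = 0.004 over 4 tests). Within cohorts the difference was -0.21, -1.23 and -3.36 in the CaggCreERT2, KspCre and drug cohorts. The CaggCreERT2 value was -0.50 without Tsc2 KO mouse 3 and 0.0054 without Tsc2 KO mouse 1, and with a library left out the other values ran from -1.58 to -0.75 (lowest in size without KspCre Tsc2 KO mouse 2) and from -3.69 to -2.95. For Slc4a9 to Slc4a1 the mean difference was -1.91 (exact p = 0.0005, adjusted p = 0.001), with -0.62, -1.76 and -3.35 in the same order. DKO kidneys had higher ratios than Tsc2 KO kidneys, by 1.82 for Slc26a4 (exact p = 0.00125, adjusted p = 0.00167) and 1.69 for Slc4a9 (exact p = 0.00025, the smallest this design allows, adjusted p = 0.001). In the CaggCreERT2, KspCre and drug cohorts these differences were 0.43, 1.46 and 3.56 for Slc26a4 and 0.73, 1.56 and 2.78 for Slc4a9. The first of them was 0.72 without CaggCreERT2 Tsc2 KO mouse 3 and 0.22 without mouse 1. The 4 tests share the Tsc2 KO libraries and the denominator Slc4a1, and within a single cohort 3 against 3 mice cannot go below an exact p of 0.10. After rapamycin the Slc26a4 to Slc4a1 ratio in Tsc2 KO mice ranged from 0.540 to 1.73, above the vehicle range.

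**Figure D3:**
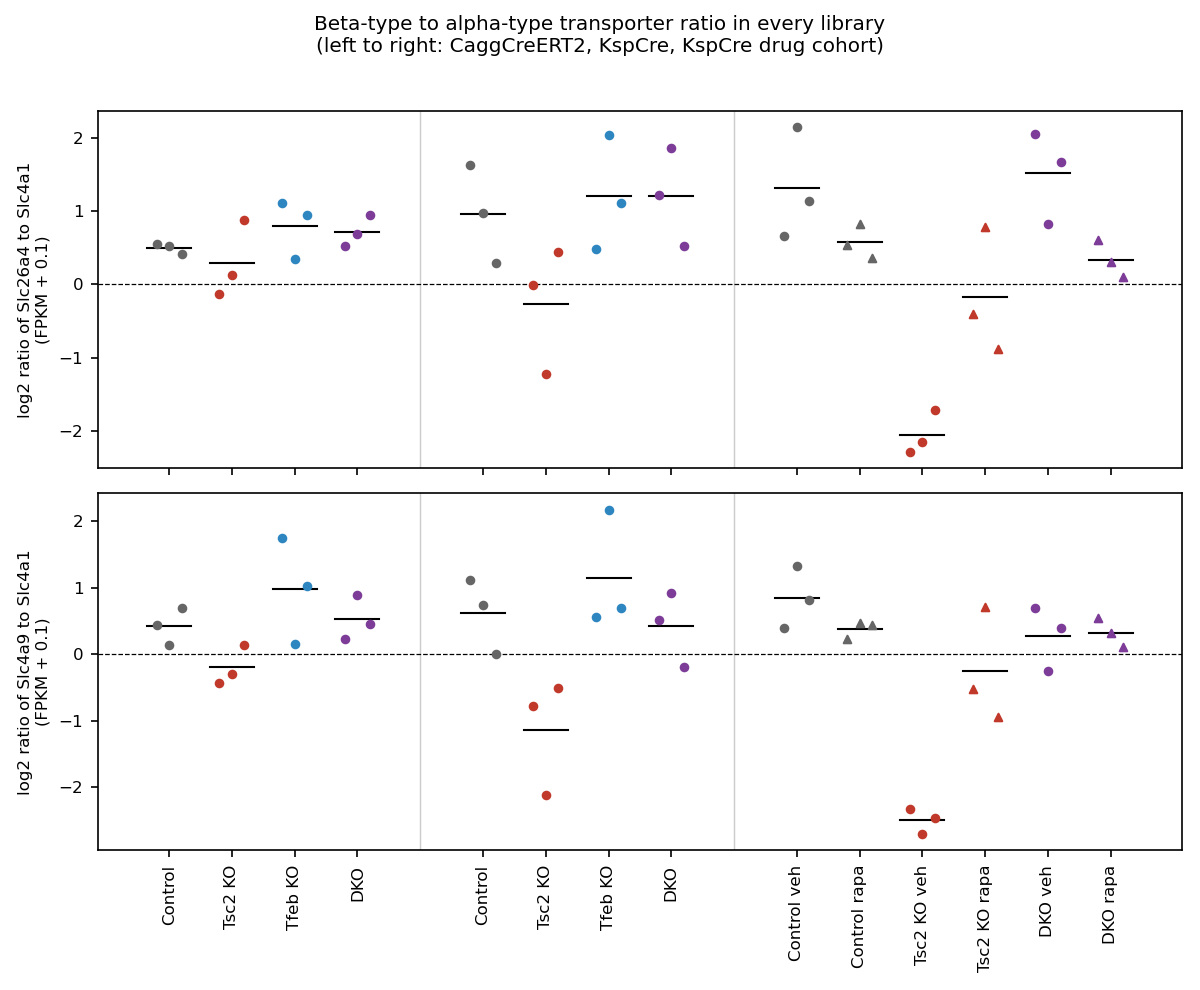
Log2 ratio of Slc26a4 (top) and Slc4a9 (bottom) to Slc4a1 in each library (FPKM + 0.1); bars are group means, circles untreated or vehicle, triangles rapamycin. Vehicle-treated Tsc2 KO kidneys of the drug cohort have the lowest ratios, between 0.201 and 0.302 for Slc26a4.

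The Tsc2 KO effect was then compared between the Cre models in 1 fit over all 42 libraries. Foxi1 had an effect 1.90 higher on the log2 scale in the KspCre than in the CaggCreERT2 cohort (SE 0.40, adjusted p = 0.0109) and 2.59 higher in the drug cohort (SE 0.40, adjusted p = 0.000174). Aqp6 and Rhcg differed between the drug and CaggCreERT2 cohorts, by 2.38 (SE 0.44, adjusted p = 0.00149) and 1.35 (SE 0.26, adjusted p = 0.00182). Oxgr1 differed between the KspCre and CaggCreERT2 cohorts, by 1.63 (SE 0.39, adjusted p = 0.0279), a call that 7 of the 12 fits without 1 library lost. These were 2 genes of the 10 where 1.20% of all tested genes were called and 3 where 3.71% were called. Foxi1 against CaggCreERT2 was called in 11 of 12 such fits with the KspCre and in 12 of 12 with the drug cohort. Without CaggCreERT2 Tsc2 KO mouse 3 these differences were 2.28 and 2.97 for Foxi1, 2.61 for Aqp6, 1.5 for Rhcg and 2.40 for Oxgr1.

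For the alpha-type Slc4a1 the difference between models did not pass, at 1.55 (SE 0.48, adjusted p = 0.107) for KspCre and 1.60 (SE 0.48, adjusted p = 0.0515) for the drug cohort against CaggCreERT2. Without CaggCreERT2 Tsc2 KO mouse 3, Slc4a1 was called in both. That mouse was picked for its values of these genes, so this is a description and not a test. For the beta-type transporters Slc26a4 and Slc4a9 no difference from the CaggCreERT2 cohort passed. The values were 0.36 and -1.70 for Slc26a4 (adjusted p = 0.86 and 0.0593) and 0.38 and -1.23 for Slc4a9 (adjusted p = 0.833 and 0.155). Nor did one pass for Insrr (0.35 and -1.41) or Hmx2 (0.16 and -1.55). Without CaggCreERT2 Tsc2 KO mouse 3 the Tsc2 KO effect of that cohort alone was -1.96 for Slc26a4 and -2.27 for Slc4a9. The differences between cohorts without that mouse are not given for these genes. Between both KspCre cohorts, which share Cre and age, only Slc26a4 was called (log2 -2.06, SE 0.52, adjusted p = 0.0498), where 0.815% of all genes were called, and 9 of 12 fits without 1 library lost it. The cohorts also differ in age, tamoxifen, sex and sequencing table, and these cannot be told apart from the Cre model.

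**Figure D4:**
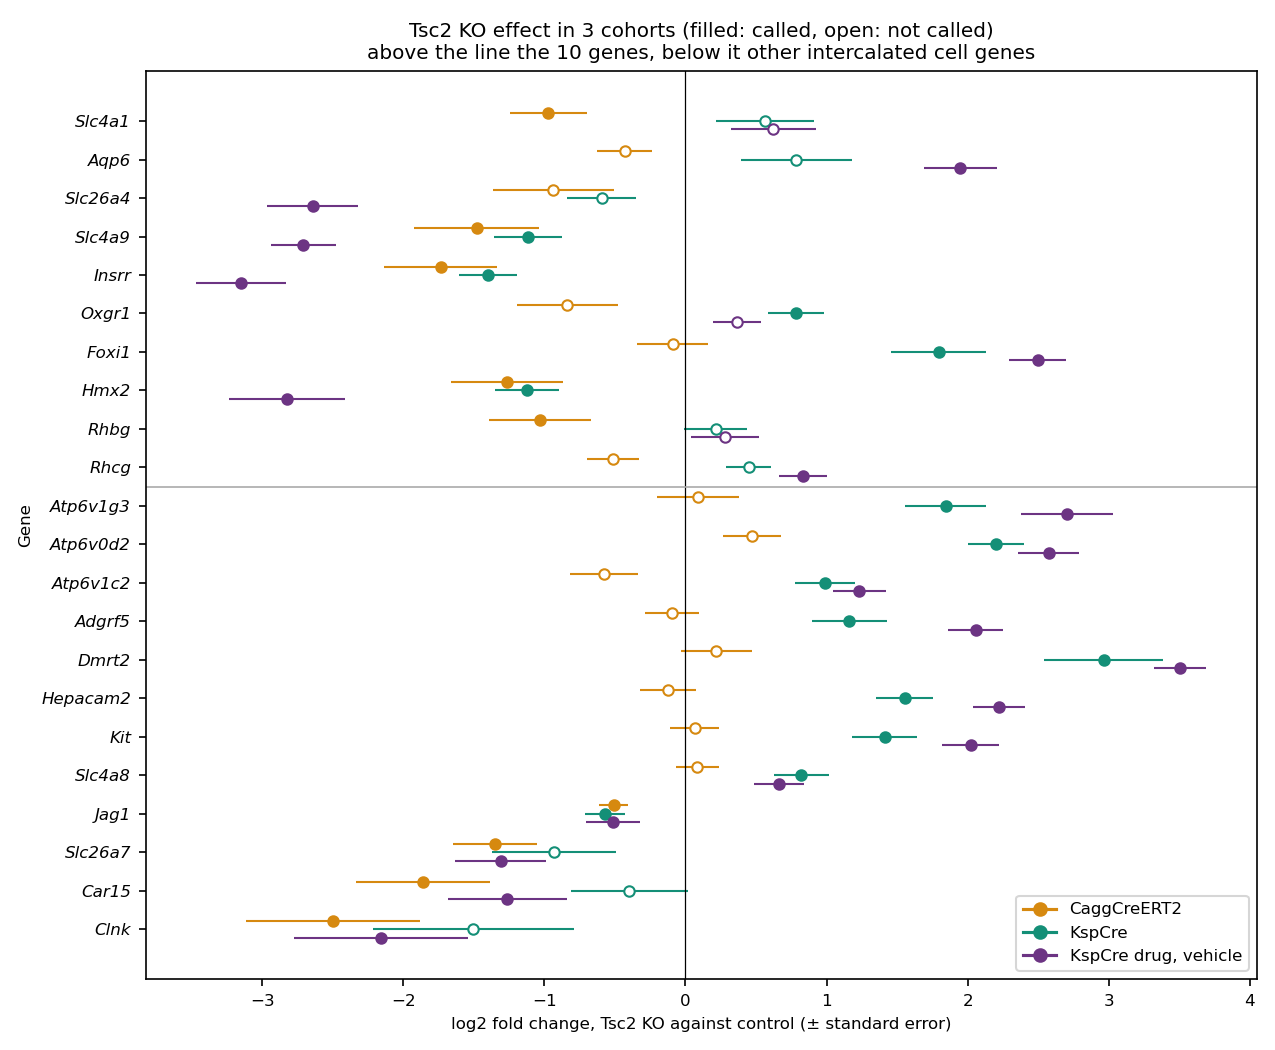
Log2 fold change of each gene for Tsc2 KO against control in the 3 cohorts (points, bars are standard errors, filled points were called), with 12 other intercalated cell genes below the line. Foxi1 lies at -0.09 in the CaggCreERT2 cohort and at 1.80 and 2.50 in the KspCre cohorts.

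A list of 21 other intercalated cell genes was counted in the same comparisons. In the CaggCreERT2 cohort 5 of 20 tested were lower and 0 higher, in the KspCre cohort 8 of 21 were higher and 1 lower, and in the drug cohort 11 of 21 were higher and 5 lower, where 29.0%, 13.8% and 38.3% of all tested genes were called. The median log2 difference of the list was -0.35, 0.50 and 0.66, against a median near 0 over all tested genes. Higher in both KspCre cohorts were the proton pump subunits Atp6v1g3 (1.84 and 2.70), Atp6v0d2 (2.20 and 2.58) and Atp6v1c2 (0.99 and 1.23). So were the transcription factor Dmrt2 (2.96 and 3.51), the receptor kinase Kit (1.41 and 2.02), the adhesion receptor Adgrf5 (1.16 and 2.06), Hepacam2 (1.55 and 2.22) and the sodium-dependent bicarbonate exchanger Slc4a8 (0.82 and 0.66). None of these 8 was called in the CaggCreERT2 cohort, and the difference between cohorts was called for 7 of the 21 genes (KspCre) and 9 (drug), all higher than in CaggCreERT2, where 1.20% and 3.71% of all tested genes were called.

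The Notch ligand Jag1 was lower in all 3 cohorts, by -0.51, -0.57 and -0.51. The chloride-bicarbonate exchanger Slc26a7 (-1.35 and -1.31), the membrane carbonic anhydrase Car15 (-1.86 and -1.26) and the adaptor Clnk (-2.50 and -2.16) were lower in the CaggCreERT2 and drug cohorts. In DKO against Tsc2 KO kidneys of the drug cohort 8 of the 21 genes were lower and 1 higher, where 22.0% of all tested genes were called. They included Dmrt2 (-2.42), Adgrf5 (-1.63), Kit (-1.47) and Atp6v0d2 (-1.23) among the lower ones. Rapamycin in Tsc2 KO mice lowered 5 and raised 5, where 29.4% of all tested genes were called, with Dmrt2 (-1.20) and Atp6v1g3 (-1.65) lower and Clnk (2.83) and Car15 (1.63) higher.

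Across the 42 libraries, after removal of each cohort's mean, the genes fell into sets by their levels. Slc26a4, Slc4a9, Insrr and Hmx2 followed each other closely, with Pearson correlations of log2 CPM between 0.908 and 0.964. The genes most like Slc26a4 among 15762 were Hmx2 (0.941), Insrr (0.940), Slc4a9 (0.908), Ass1, an enzyme of arginine synthesis (0.841), and Nat8f1 (0.838). Those most like Foxi1 were Hepacam2 (0.915), Sgsm1 (0.910), Atp6v0d2 (0.906), Dmrt2 (0.905) and Rcan2 (0.900). For Slc4a1 they were Aqp6 (0.775), Cpsf4l (0.774), Rhbg (0.729), Pdlim3 (0.702) and Oxgr1 (0.695). Slc26a4 correlated at 0.208 with Slc4a1 and at -0.354 with Foxi1, and Oxgr1, a beta-type gene by its group, at 0.293 with Slc26a4 and 0.695 with Slc4a1. Within cohorts some of these values were lower. Dmrt2 correlated with Foxi1 at 0.367, 0.892 and 0.978 in the CaggCreERT2, KspCre and drug cohorts, and in the KspCre cohort Ass1 and Nat8f1 correlated with Slc26a4 at 0.444 and 0.487 and Rhbg with Slc4a1 at 0.470. These values describe libraries that share genotype, treatment and tissue composition, and they carry no test.

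**Figure D5:**
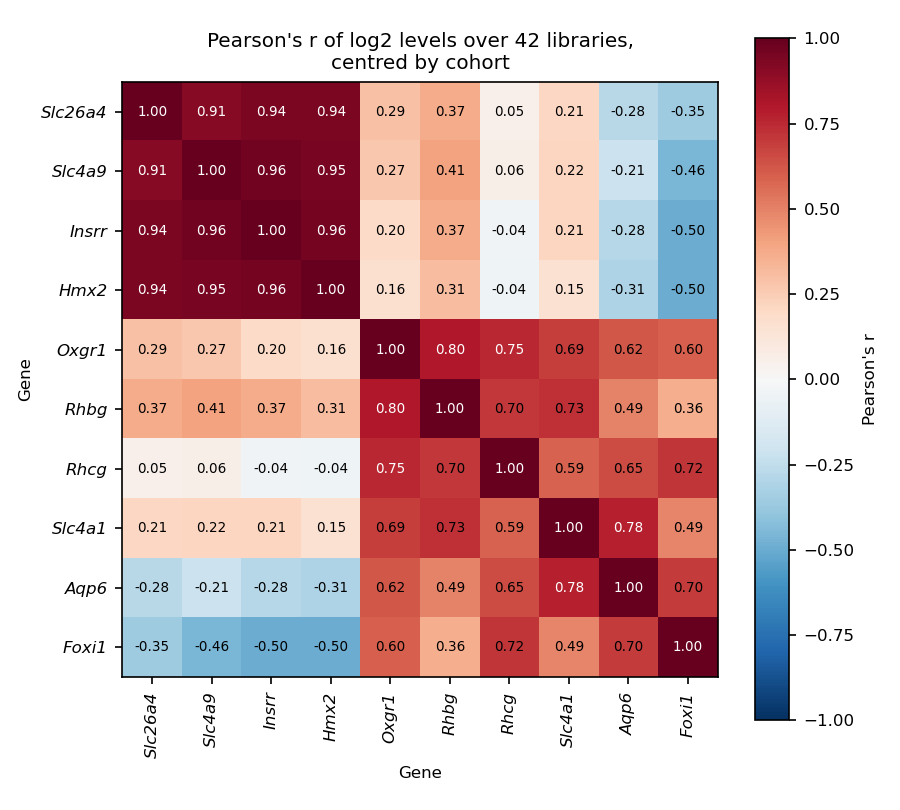
Pearson correlations between the 10 genes over 42 libraries (log2 CPM, each cohort's mean removed), as a description. Slc26a4, Slc4a9, Insrr and Hmx2 form 1 block with values from 0.908 to 0.964.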

How the data were processed

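Whole-kidney poly-A RNA was sequenced without strand information. For each cohort the authors deposited whole-number counts of reads per gene and FPKM, in which the authors adjusted for the length of each gene and the size of each library. The submitters' processing notes name STAR 2.6.1d, HISAT2 2.0.5, featureCounts 1.5.0-p3, DESeq2 1.20.0 and build mm10, without their roles. The 10 genes and all marker lists were chosen with earlier results of these data known. All 10 genes were tested in every comparison, and each is given with its value in the comparisons of Tsc2 KO with control. Other intercalated cell genes are named where called in at least 2 of 3 Tsc2 KO comparisons, and for Foxi1, Slc4a1 and Slc26a4 the 5 most similar genes are named. Groups follow the sample labels. The sources call the replicates separate mice, and replicate libraries differed by 16.4 to 87.5 times the sampling noise.

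Counts were tested in R 4.3.3 with edgeR 4.0.16 (TMM, filterByExpr, quasi-likelihood test, all groups of a cohort in 1 fit, Benjamini-Hochberg adjustment over all tested genes, called at 0.05 or lower). The code was tested on simulated data. FPKM served for levels and for ratios with a pseudocount of 0.1, which were compared by exact permutation within cohorts. Alternatives were DESeq2 1.42.0, RLE normalization, no filter, an FPKM minimum of 5, only the groups compared, the replicate block, Xist as a covariate, the names of the count table, another pseudocount and each library left out in turn. Those for the other contrasts, for the comparison of cohorts and for ratios within a cohort were added after seeing the data.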

Additional observations from a re-analysis of the deposited data

Results flagged for a closer look

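In each case below a test of the difference between 2 effects passed (edgeR interaction term, adjusted p of 0.05 or lower). All values are on the log2 scale. The rapamycin effect in Tsc2 KO mice minus that in control mice was 2.93 for Slc26a4, 3.12 for Slc4a9, 3.14 for Insrr, 3.05 for Hmx2, 0.96 for Oxgr1 and -1.24 for Foxi1. The rapamycin effect in Tsc2 KO mice minus that in DKO mice was 4.10 for Slc26a4, 3.29 for Slc4a9, 3.69 for Insrr, 3.67 for Hmx2, 1.37 for Oxgr1 and 1.19 for Rhbg. The last of these, with an adjusted p of 0.0453, was lost in 9 of the 12 fits that leave out 1 library.

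The Tsc2 KO effect in the KspCre cohort minus that in the CaggCreERT2 cohort was 1.90 for Foxi1 and 1.63 for Oxgr1. The effect in the drug cohort minus that in the CaggCreERT2 cohort was 2.59 for Foxi1, 2.38 for Aqp6 and 1.35 for Rhcg. The effect in the drug cohort minus that in the untreated KspCre cohort was -2.06 for Slc26a4. In these comparisons the Cre model cannot be told apart from age, tamoxifen and sex, whereas the cohorts of the last one share these but differ in vehicle treatment and in the table they were deposited in. Groups held 3 libraries each, and no formal test for a single outlying library was run.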

How the results depend on the processing

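In the drug cohort, leaving out each library in turn left 7 of the 10 genes called between Tsc2 KO and control, 6 between DKO and Tsc2 KO and 6 to 9 between rapamycin and vehicle in Tsc2 KO mice. The 4 ratio tests kept their direction and stayed past the threshold under every alternative and every left-out library, with mean log2 differences from -1.72 to -1.44 and from 1.66 to 1.94 for Slc26a4, and from -2.01 to -1.74 and from 1.52 to 1.79 for Slc4a9. For Tsc2 KO against control in the CaggCreERT2 cohort 9 genes were called with no filter on low counts, 2 with the names of the count table and 1 with Xist as a covariate, and 1 to 9 when a library was left out. For DKO against Tsc2 KO there 4 were called with no filter, and 0 to 7 with a library left out. For DKO against control there 5 were called by DESeq2, 6 with no filter and 7 with only the groups compared. Called were 0 with the names of the count table, 2 with Xist as a covariate and 0 to 1 with a library left out. The Tsc2 levels given above go with the FPKM names and not with those of the count table. For most of these counts the share of all tested genes called in the same fit is not given. A general rise or fall in calls thus cannot be told apart from a change in these genes.

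In the KspCre cohort DKO against Tsc2 KO gave 4 called genes with DESeq2 and 4 with no filter, 0 with only the groups compared and 0 to 1 with a library left out. DKO against control gave 2 with DESeq2 and 1 with no filter. The difference between the Tfeb effects with and without Tsc2, where none was called, gave 1 with DESeq2 and 1 with no filter, and in the CaggCreERT2 cohort 0 to 3 with a library left out. In the drug cohort DKO against control gave 0 with only the groups compared and 1 to 4 with a library left out, rapamycin in DKO mice 0 to 3 with a library left out, and rapamycin-treated Tsc2 KO against control mice 5 with DESeq2. For the Tsc2 KO effect between cohorts, a left-out library gave 0 to 5 genes for KspCre against CaggCreERT2, 3 to 6 for the drug cohort against CaggCreERT2 and 0 to 3 for the drug against the KspCre cohort. The cause of these changes was not tested. The share of all tested genes called in these fits is not given, so a general change in calls cannot be told apart.

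Signs reversed under some settings for differences that were not called with all libraries. Between DKO and Tsc2 KO in the CaggCreERT2 cohort Rhbg was at -0.0013 with DESeq2 and -0.0075 with no filter. With a library left out the log2 differences there ran from -0.30 to 0.82 for Rhbg, -0.19 to 0.87 for Oxgr1, -0.026 to 0.71 for Slc4a1 and -0.29 to 0.048 for Aqp6, and between Tsc2 KO and control from -0.47 to 0.14 for Foxi1. In the KspCre cohort they ran from -0.086 to 0.38 for Rhbg between Tsc2 KO and control, and between DKO and Tsc2 KO from -0.40 to 0.24 for Slc4a1 and -0.16 to 0.058 for Rhcg. In the drug cohort they ran between DKO and Tsc2 KO from -0.25 to 0.048 for Slc4a1, -0.11 to 0.23 for Oxgr1 and -0.35 to 0.0003 for Rhcg, and for rapamycin in Tsc2 KO mice from -0.095 to 0.13 for Rhcg.

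Replicate numbers are shared between groups, but the deviations of libraries with the same number from their group means correlated between -0.36 and 0.36, so the numbers do not pair the mice. With the replicate block, DKO against Tsc2 KO in the KspCre cohort gave 0 called genes, with Slc4a1 at -0.0754. The counts of the other main comparisons stayed within 1.5 times. Shares of all tested genes called with this block are not given here. Within the CaggCreERT2 cohort the log2 ratio of Slc26a4 to Slc4a1 differed by -0.50 to 0.0054 between Tsc2 KO and control with a library left out. Depth was lowest for Hmx2 in vehicle-treated Tsc2 KO mice of the drug cohort, at 15, 44 and 68 reads, where counting error adds to the spread between mice.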
